A study of Mus musculus with 9 samples.

Results

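Lbx1, Pax2, Pax8, Lhx1, Lhx5, Lmx1b, Gata3, En1 and Gbx1 encode transcription factors that specify interneurons of the spinal cord. They were chosen by name, as a list of gene symbols, and all 9 were found among the 22609 genes counted. RNA sequencing had been done on 3 samples each of L3 to L5 dorsal root ganglia (DRG), the lumbar part of the spinal cord and hind paw skin (punch biopsies) from male C57 mice aged 8 to 12 weeks. All 9 samples had the same treatment, paclitaxel (PTX) at 2 mg/kg in 2 intraperitoneal injections and a lymphotoxin-beta receptor (LTβR) antagonist at 15 µg per site, given intraplantar and intrathecal together, with collection 6 days after the last PTX. The sample titles put the antagonist on days 1 and 4, whereas the series text puts it between the PTX injections and 1 day after. Untreated and IgG-treated mice are not analysed here, so every comparison is between tissues of treated adult mice and none bears on the treatment. Whether replicates are separate mice is not stated in the labels, and p-values then measure only the spread between these samples, which may be technical.

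In the embryo these factors are switched on in postmitotic neurons of the dorsal and ventral spinal cord, where combinations of them fix the class of a neuron and its transmitter. Lbx1 marks a broad set of dorsal classes. Pax2, with its paralog Pax8 and the LIM homeobox genes Lhx1 and Lhx5, belongs to the inhibitory programme, and Gbx1 is found in part of the dorsal inhibitory neurons. Lmx1b belongs to the excitatory programme of the dorsal horn. En1 marks the ventral V1 class and Gata3 the ventral V2b class, both inhibitory, and Gata3 also marks the neurons that contact the cerebrospinal fluid. Several have other roles outside the cord: Lbx1 in muscle precursors that migrate into the limb, En1 in the ventral ectoderm of the limb and in sweat glands, Lmx1b in the dorsal limb, and Gata3 in epidermis, hair follicle and lymphoid cells.

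The factors fall into homeobox, paired-box and GATA families, and the coding sequences show how far a 50-base read can tell relatives apart. A pattern of the homeobox was searched in frame, made of TGGTT, any base, CA, any base and AA. For the 6 genes that hold it, a stretch of 50 coding bases around it is given 5′ to 3′ from the GENCODE M21 transcripts, with the pattern in capitals. The pattern was not found in frame in Pax2, Pax8 or Gata3.
Lbx1: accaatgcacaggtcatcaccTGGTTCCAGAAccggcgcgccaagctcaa
Lhx1: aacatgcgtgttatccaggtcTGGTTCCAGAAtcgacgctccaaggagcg
Lhx5: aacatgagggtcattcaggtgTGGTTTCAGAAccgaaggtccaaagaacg
Lmx1b: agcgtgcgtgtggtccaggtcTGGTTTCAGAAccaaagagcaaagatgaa
En1: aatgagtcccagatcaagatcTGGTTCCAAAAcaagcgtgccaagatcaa
Gbx1: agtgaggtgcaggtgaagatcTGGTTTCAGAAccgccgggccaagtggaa
The paralogs Lhx1 and Lhx5 were the closest pair and still differed at 11 of these 50 bases. The other pairs differed at 15 to 28.

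Pax2 and Pax8 are a second pair of paralogs. Their longest identical coding stretch had 27 bases, shown in capitals with 9 flanking bases on each side, at coding bases 205 to 231 of Pax2 and 187 to 213 of Pax8.
Pax2: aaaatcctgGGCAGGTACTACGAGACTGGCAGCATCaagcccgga
Pax8: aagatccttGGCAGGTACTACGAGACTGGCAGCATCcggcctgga
With each of the 9 genes set against 1 near relative, the longest identical coding stretch was 38 bases, between Gbx1 and Gbx2. No identical window of 50 bases was shared between transcripts of any 2 of the 9 genes. Only exact matches were counted, so reads placed with mismatches are not covered. Windows were taken from 1 coding transcript of each of the 9 genes, so exons outside it are not covered either. Lbx1, Pax2, Lhx1, En1 and Gbx1 had no such window in common with any other gene. For Pax2 the transcript had 3095 bases, beside 5409 in the union of its exons, and 3 other genes overlapped Pax2. In Pax8, 272 of 2511 windows, or 10.8%, also lay in Gm13415, a gene on the opposite strand at the same place. In Gata3, 59 of 3166 windows, or 1.86%, lay in the overlapping gene Gm13256. In Lhx5, 69 of 2640 windows, or 2.61%, lay in transcripts of 449 other genes, and in Lmx1b 21 of 4741, or 0.443%, in those of 195, all outside their coding sequence. Because the strand setting of the counting is not given in the sources used here, reads of overlapping genes cannot be assigned with certainty.

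Each library held 15537545 to 23229724 reads in genes. Levels are given as CPM, read counts scaled to a common library size with TMM factors, and 3 reads, taken as the floor of detection, equal 0.134 to 0.185 CPM. Markers of cord and of sensory neurons were highest in the tissue that the labels name. The summed level of 6 spinal cord markers was 3150 to 3710 CPM in cord, 10.5 to 12.3 CPM in DRG and 8.26 to 13.4 CPM in paw. That of 6 sensory neuron markers was 3280 to 3890 CPM in DRG, 16.2 to 27.1 CPM in cord and 3.24 to 3.95 CPM in paw. Some libraries stood apart from others of their tissue in single genes. Acta1, a skeletal muscle actin, was at 132 and 227 CPM in DRG samples 1 and 2 against 8.42 in sample 3. Prx, a protein of myelinating Schwann cells, was at 1105 CPM in cord sample 3 against 341 and 357 in the others. Myh4, another skeletal muscle gene, was at 13.3 CPM in cord sample 1 against 1.49 and 1.55 in the others. In paw sample 1 it was at 2448 CPM against 443 and 925 in the others.

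All 9 factors had higher levels in spinal cord than in DRG, and for none of them did a cord library overlap a DRG library. A gene was called different where edgeR's quasi-likelihood test with Benjamini-Hochberg adjustment gave an adjusted p under 0.05. Of the 16091 genes tested, 59.6% were called between cord and DRG, 30.6% as higher in cord, and 64.5% had no overlap between the libraries. The median log2 difference of the 9 factors was 4.84, beside 0.02 over all tested genes. Against paw, 6 factors were higher in cord, 2 were lower and 1 was not called. Here 81.6% of tested genes were called, 41.7% higher and 39.9% lower in cord. Between paw and DRG, 4 factors were higher in paw, 3 were lower and 2 were not called, with a background of 80.5% called, 39.7% higher and 40.8% lower. In bulk tissue, fewer cells of a type and less RNA per cell cannot be told apart. All 9 genes passed the filter on low counts, each through its cord or paw libraries.

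**Figure D1:**
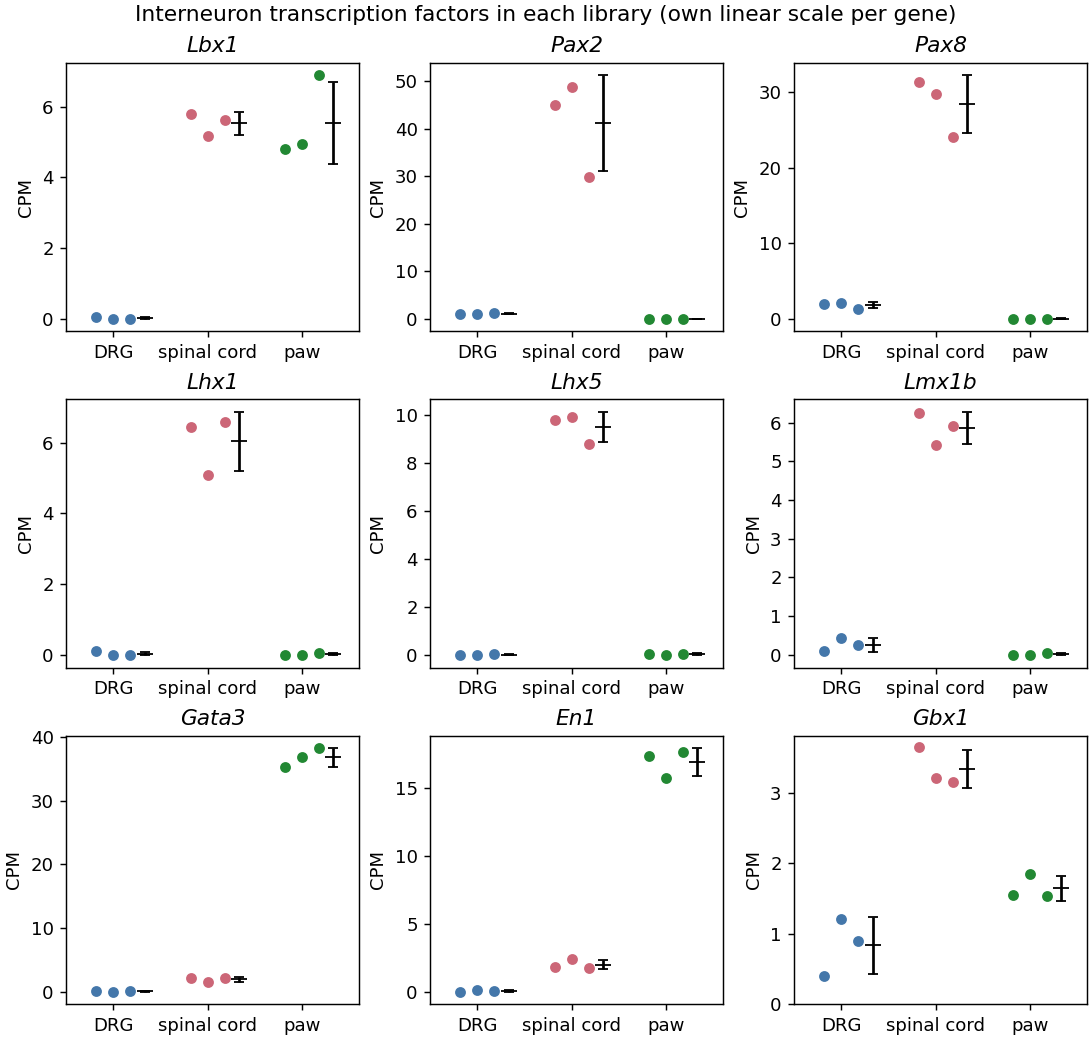
Level of each factor in CPM (vertical axis, linear, own scale per gene) in the 3 libraries each of DRG, spinal cord and paw; points are libraries and the bar beside them is the mean ± SD. Pax2, Pax8, Lhx1, Lhx5 and Lmx1b are high in the cord alone, Gata3 and En1 are highest in paw, and the Lbx1 points of cord and paw overlap at 4.79 to 6.89 CPM.

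Pax2 and Pax8, the paired-box factors of the inhibitory programme, gave the most reads of the 9 in the cord. Pax2 stood at 45.0, 48.9 and 29.9 CPM in cord samples 1 to 3, at 1.12, 0.965 and 1.19 CPM in DRG, and at 0, 0.0617 and 0.0589 CPM in paw. The DRG libraries held 69 Pax2 reads in all, above the floor in each library, whereas the paw libraries held 2. Pax2 was higher in cord than in DRG by 5.24 ± 0.23 on the log2 scale (SE, adjusted p = 7.18e-09), a ratio of counts of 38.5 with a 95% counting interval of 30.3 to 49.6. Against the 2 reads in paw the ratio was 1050, with an interval of 289 to 8640. These intervals hold counting error alone, because the reads of a tissue were pooled and the spread between its libraries is left out. The reads also carry no molecular identifiers and can be copies of one molecule.

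Pax8 stood at 31.3, 29.8 and 24.1 CPM in cord, at 1.97, 2.17 and 1.34 CPM in DRG, and at 0.0599, 0 and 0.0589 CPM in paw. Each cord library was far above each DRG library, and the 116 DRG reads were again well above the 2 reads in paw. The difference between cord and DRG was 3.95 ± 0.21 (adjusted p = 2.41e-08), a count ratio of 15.6 (12.9 to 19), and that between cord and paw a ratio of 714 (197 to 5900). By ratio of counts, DRG exceeded paw 45.7-fold for Pax8 (12.4 to 382) and 27.2-fold for Pax2 (7.25 to 229). The adjusted p of edgeR's quasi-likelihood test was 1.03e-06 for Pax8 and 2.31e-05 for Pax2.

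Lhx1 and Lhx5, LIM homeobox factors that maintain Pax2 and the inhibitory transmitter state in dorsal neurons, were at or near 0 outside the cord. Lhx1 was measured at 6.45, 5.09 and 6.60 CPM in cord, from 353 reads. It had 2 reads over DRG, both in sample 1, and 1 over paw. Lhx5 was measured at 9.81, 9.94 and 8.78 CPM in cord, from 562 reads, with 1 read over DRG and 2 over paw. Every DRG and paw library lay under the floor of 3 reads for both genes, and the cord libraries of each were within a 1.3-fold range. The count ratio of cord to DRG was 190 (52.2 to 1570) for Lhx1 and 604 (108 to 23900) for Lhx5. That of cord to paw was 299 (53.4 to 11900) and 238 (65.6 to 1970). Between paw and DRG neither was called, with adjusted p = 0.74 for Lhx1 and 0.465 for Lhx5 by edgeR, and with at most 2 reads a tissue no difference was detectable at this depth.

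Gbx1, a homeobox factor of dorsal inhibitory neurons, had the smallest range over tissues. It stood at 3.65, 3.22 and 3.16 CPM in cord, at 1.56, 1.85 and 1.53 CPM in paw, and at 0.402, 1.21 and 0.891 CPM in DRG. The 3 tissues did not overlap in any pair, with DRG lowest. Cord exceeded DRG by 2.01 ± 0.32 (adjusted p = 0.000218) and paw by 1.02 ± 0.30 (adjusted p = 0.00815). The difference between paw and DRG, 0.99 ± 0.34 (adjusted p = 0.0187), lost its call when either of 2 libraries was left out: it was 0.64 without DRG sample 1 (adjusted p = 0.0571) and 0.91 without paw sample 2 (adjusted p = 0.0572), all by edgeR. It also missed the threshold with both muscle-bearing DRG libraries left out (0.87, adjusted p = 0.0606). Of the tested genes, 83.4% had no overlap between paw and DRG and 83.5% none between cord and paw.

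Lmx1b, the excitatory factor of the set, stood at 6.25, 5.41 and 5.91 CPM in cord, from 344 reads. In DRG it stood at 0.0894, 0.434 and 0.248 CPM, from 16 reads, of which sample 1 held fewer than the floor. Paw had 1 read. The cord libraries were within a 1.16-fold range and far above the rest. Lmx1b was higher in cord than in DRG by 4.49 ± 0.39 (adjusted p = 1.51e-06), and by 5.09 without DRG sample 2, its highest DRG library. The count ratio of cord to paw was 292 (52 to 11600), and that of DRG to paw 12.6 (1.96 to 529; adjusted p = 0.00745 by edgeR).

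Lbx1, the factor of the broad dorsal set, had overlapping levels in cord and in paw skin. The cord libraries read 5.80, 5.18 and 5.63 CPM and the paw libraries 4.79, 4.94 and 6.89 CPM. Paw sample 3 was above every cord library and the other 2 paw libraries were below them. The means were 5.54 ± 0.322 CPM in cord and 5.54 ± 1.17 CPM in paw (SD, n = 3), and the count ratio of paw to cord was 1.01 with a counting interval of 0.853 to 1.18. The fitted difference was -0.0023 ± 0.21 on the log2 scale (adjusted p = 0.993 by edgeR), and without paw sample 3 it was 0.19. DRG held a single Lbx1 read, in sample 1, so that cord exceeded DRG 350-fold (62.3 to 13800) and paw exceeded it 351-fold (62.6 to 13900).

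Muscle genes were present in the same paw libraries as Lbx1. Myod1, a factor of the myogenic lineage, stood at 5.09, 7.10 and 8.60 CPM in paw samples 1 to 3. Pax7, which marks muscle stem cells, stood at 1.80, 3.02 and 3.48 CPM, and Myf5, another myogenic factor, at 0.599, 1.61 and 2.12 CPM. The summed level of the 6 muscle genes examined, a list added after the values had been seen, was 5770 to 7220 CPM in paw, 7.58 to 37.5 CPM in cord and 19.5 to 550 CPM in DRG, with none at 0 in any tissue. All 6 were higher in paw than in DRG and in cord. In DRG samples 1 and 2, where Acta1 was high, Lbx1 had 1 read and none. The part of muscle in the paw level of Lbx1 was not tested.

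Gata3, a zinc-finger factor of V2b neurons and of epidermis, had the most reads of the 9 in paw. It stood at 35.3, 36.9 and 38.2 CPM in paw, at 2.15, 1.54 and 2.18 CPM in cord, and at 0.0894, 0 and 0.149 CPM in DRG. The paw libraries, from 1837 reads, differed by little from each other and were far above the 114 reads in cord and 5 in DRG. Gata3 was lower in cord than in paw by -4.24 ± 0.20 (adjusted p = 2.56e-09), a paw to cord ratio of 19 (15.7 to 23.2). It was nevertheless higher in cord than in DRG by 4.51 ± 0.41 (adjusted p = 2.33e-06), a ratio of 24.5 (10.2 to 77) that rests on the 5 DRG reads. Without DRG sample 3, which held 3 of them, the fitted difference was 5.20.

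En1, the homeobox factor of V1 neurons and of ventral limb ectoderm, had the same order of tissues. It stood at 17.4, 15.8 and 17.7 CPM in paw, at 1.80, 2.38 and 1.78 CPM in cord, and at 0, 0.145 and 0.0495 CPM in DRG. Again no libraries overlapped between tissues. En1 was lower in cord than in paw by -3.08 ± 0.23 (adjusted p = 1.23e-07), a paw to cord ratio of 8.47 (6.98 to 10.4). It was higher in cord than in DRG by 4.84 ± 0.44 (adjusted p = 2.6e-06), on 4 DRG reads, and by 6.05 without DRG sample 2, which held 3 of those reads.

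**Figure D2:**
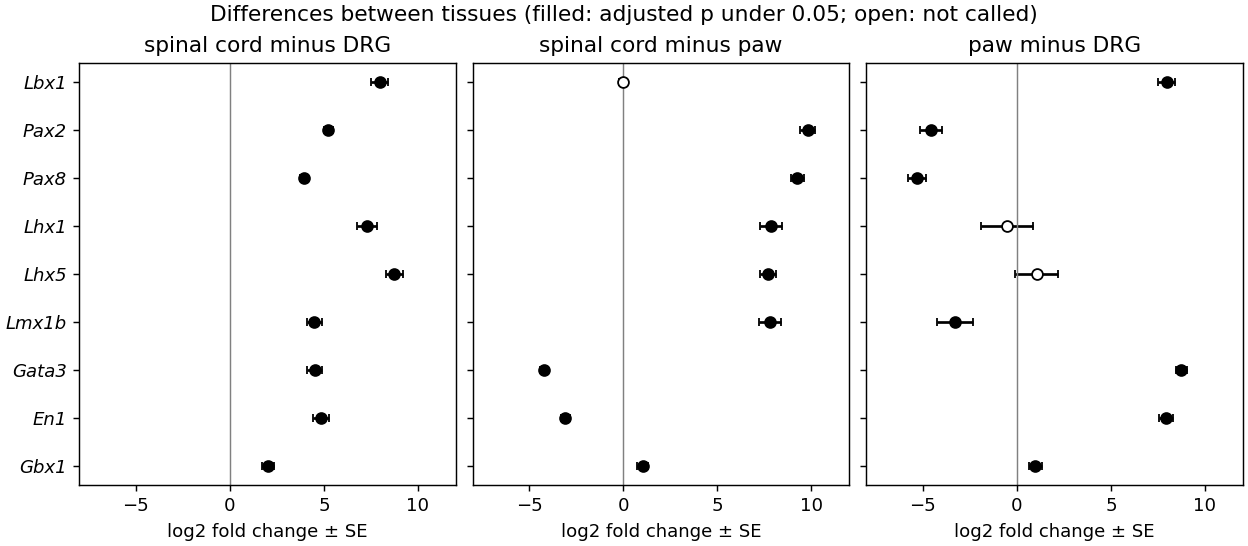
Log2 fold change ± SE of each factor (horizontal axis) in cord minus DRG, cord minus paw and paw minus DRG; filled points passed the adjusted p of 0.05 and open points did not. All points of cord minus DRG lie right of 0, while Gata3 at -4.24 and En1 at -3.08 lie left of it in cord minus paw; values of genes with 1 to 3 reads in a tissue depend on the prior count.

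Markers of skin cell types were measured in the same libraries as Gata3 and En1. All 7 keratinocyte markers were higher in paw than in DRG and in cord, and 6 of the 7 were not called between cord and DRG, with a summed level of 34000 to 53000 CPM in paw, 31.4 to 34 CPM in cord and 14.3 to 27 CPM in DRG. All 3 sweat gland markers were likewise higher, at 217 to 286 CPM in paw against at most 1.09 CPM elsewhere, with 1 of them at 0 in cord and 2 in DRG. The 8 markers of T and innate lymphoid cells summed to 11.4 to 13.5 CPM in paw, 2.15 to 4.95 CPM in cord and 3.43 to 5.23 CPM in DRG. Most of the paw sum came from Il1rl1 and Il7r, with means of 5.63 and 4.03 CPM. The T cell genes Cd3e, Cd3g, Cd3d and Cd8a had paw means of 0.241, 0.26, 0.0595 and 0.0402 CPM and were not tested. Of the 4 lymphoid markers tested, 2 were higher in paw than in DRG. The 5 mast cell markers summed to 127 to 144 CPM in paw, 34 to 35.8 in cord and 87.5 to 120 in DRG, most of it from Kit, which other cells also express, at 93.5, 34.8 and 96.1 CPM. Cpa3, a mast cell protease, stood at 12.5, 11.0 and 11.0 CPM in paw, at most 0.65 CPM in cord and at most 2.95 CPM in DRG. Of the 4 mast cell markers tested, 3 were higher in paw than in DRG, Kit was not called there, and all 4 were lower in cord than in DRG. The part of any of these cell types in the paw levels was not tested. A gene that overlaps Gata3, 4930412O13Rik, stood at 10.2, 11.4 and 8.36 CPM in paw and was among 2 overlapping genes examined after the values were seen.

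Genes that pattern the limb gave a further frame for En1, Lbx1 and Lmx1b. Of the 10 limb patterning genes tested, 9 were higher in paw than in DRG and 1 was lower. Between cord and paw, 1 was higher and 9 were lower in cord. Tbx4, a hindlimb factor, stood at 5.69, 7.10 and 9.54 CPM in paw and under 0.4 CPM in every other library. The gene that was higher in cord was Wnt7a, a dorsal ectoderm signal that En1 represses in the ventral limb bud, at 16.1 ± 2.25 CPM in cord and 0.301 ± 0.00717 CPM in paw (SD, n = 3), a difference of 5.71 ± 0.23 (adjusted p = 5.15e-10 by edgeR). Lmx1b, the dorsal limb factor downstream of Wnt7a in the bud, had 1 read in paw beside 847 for En1.

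Within a tissue, genes can be ranked only per length. Divided by the length of the union of their exons in kilobases (GENCODE M21), the cord levels were 7.63 ± 1.85 for Pax2, 4.68 ± 0.633 for Pax8, 3.54 ± 0.235 for Lhx5 and 2.23 ± 0.13 for Lbx1 (CPM per kb, SD, n = 3). They were 1.48 ± 0.205 for Lhx1, 1.2 ± 0.0867 for Lmx1b, 0.962 ± 0.0776 for Gbx1, 0.757 ± 0.13 for En1 and 0.492 ± 0.0909 for Gata3. Lhx1 and Lmx1b overlapped in their cord libraries, whereas the other neighbours in this order did not. Gbx1 and En1 came close, with 0.908 as the lowest Gbx1 library and 0.907 as the highest En1 library. Per kilobase of a single coding transcript, Pax2 at 13.3 (9.66 to 15.8) and Pax8 at 11.1 (9.39 to 12.2) kept that order of means, but their cord libraries overlapped. In paw the order per kilobase of exons was Gata3 at 9.26 ± 0.365, En1 at 6.46 ± 0.387, Lbx1 at 2.23 ± 0.472 and Gbx1 at 0.474 ± 0.0514, and the rest were at 2 reads or fewer.

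In none of the 3 cord libraries did all 9 factors lie on the same side of the mean of the other 2. Sample 1 came nearest, with every factor but En1 (-0.183 on the log2 scale) above that mean. The median there was 0.153 over the 9 factors and 0.00588 over all tested genes. Pax2 had the widest range, 1.63-fold, because sample 3 lay 0.647 below the mean of the other 2 on the log2 scale. Pax8 was 0.344 lower in the same sample, and En1, Lhx5 and Gbx1 were 0.208, 0.167 and 0.115 lower. Gata3, on 43, 33 and 38 reads in cord samples 1 to 3, was 0.247 higher in sample 3. Lhx1 was 0.201 higher there, and Lbx1 and Lmx1b differed by 0.0366 and 0.0229. The median over all tested genes in that sample was -0.0427. Cord sample 3 is the library with the high Prx, and its 6 fibroblast markers summed to 1040 CPM against 347 CPM in the lowest cord library. Slc6a5, the glycine transporter of inhibitory neurons, stood at 1.65, 1.21 and 16.9 CPM in cord samples 1 to 3. The part of these differences in the spread of Pax2 was not tested.

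**Figure D3:**
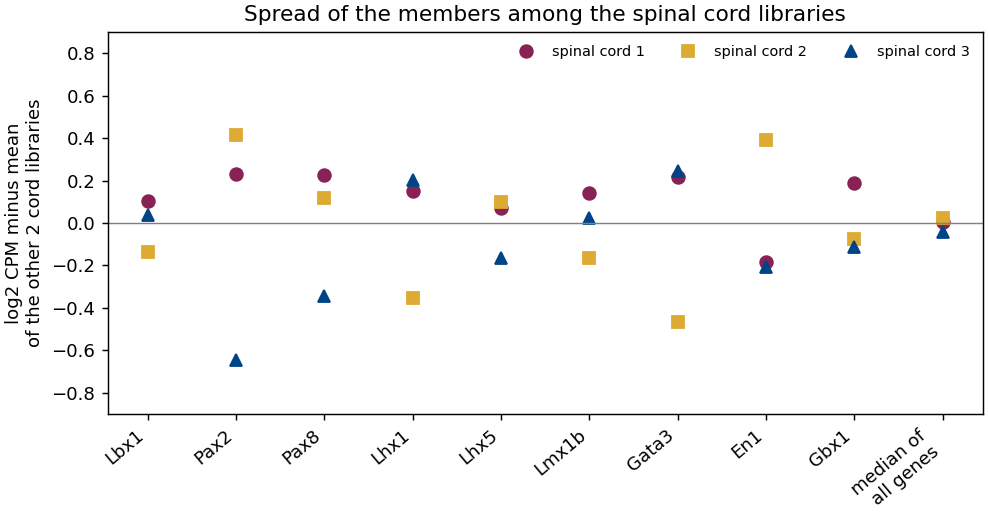
For each factor and for the median of all tested genes, log2 CPM of one spinal cord library minus the mean of the other 2 (vertical axis); circles, squares and triangles are cord samples 1, 2 and 3. Sample 3 is lowest for Pax2 at -0.647, Pax8 at -0.344, En1 at -0.208, Lhx5 at -0.167 and Gbx1 at -0.115. It is highest for Gata3 and Lhx1, for which sample 2 is lowest.

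The low DRG levels of Pax2, Pax8, Lmx1b and Gbx1 were set beside those of genes that mark the cord. Slc32a1, the vesicular transporter of inhibitory transmitters, fell from 260 CPM in cord to 0.223 CPM in DRG, a difference of 10.16. Gad1 and Gad2, the enzymes that make GABA, differed by 8.26 and 8.89. Mog, a myelin protein of oligodendrocytes, differed by 10.95 and Gfap, an astrocyte filament, by 8.37. The differences of the 4 factors were 5.24, 3.95, 4.49 and 2.01 in the order named. Both the factors and these markers were picked with their values known. Among other genes higher in cord, Bhlhe22 at 2.19 lay in the range of the 4 factors and Zfpm2 at 1.66 lay below it. All 5 marker differences passed the threshold in edgeR's quasi-likelihood test. The part of cord tissue in the DRG levels was not tested. As for another type of neuron, 4 sympathetic neuron markers summed to 88.5 to 119 CPM in DRG against 3.85 to 5.46 CPM in cord. Of the 2 sympathetic markers tested, 1 was lower in cord.

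The other spinal interneuron factors differed between cord and DRG in both directions, more of them higher in cord. Of 39 listed, 29 were tested, and 17 were higher in cord than in DRG, 10 were lower and 2 were not called, beside 30.6% of all tested genes higher and 29% lower. Their median difference was 1.99. Among dorsal excitatory factors, 2 of the 8 tested were higher in cord and 5 were lower, with a median difference of -2.23. Isl1, which sensory neurons also express, had a mean of 91.8 ± 10.6 CPM in DRG against 1.89 ± 0.298 in cord, a difference of -5.59 ± 0.18 (adjusted p = 6.94e-10 by edgeR), and Tlx3, a selector of the glutamatergic fate, differed by -4.02 ± 0.22 (adjusted p = 2.72e-07). Barhl1 and Lhx2, of the dI1 class, were called higher in cord at 1.17 and 0.415 CPM, against 1 read each in DRG. Mafa was not called, at 4.00 CPM in cord and 2.81 CPM in DRG.

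Among dorsal inhibitory factors, 4 of the 5 tested were higher in cord than in DRG and 1 was lower, with a median of 5.71, and all 5 were higher in cord than in paw. Sall3 stood at 29.1 ± 3.39 CPM in cord and 0.0656 CPM in DRG, a difference of 8.70 ± 0.38 (adjusted p = 5.45e-09 by edgeR). Rorb, a nuclear receptor of dorsal horn inhibitory neurons, stood at 38.7 ± 1.08 against 0.095 CPM, a difference of 8.58 ± 0.23. Skor2, a corepressor, went the other way, at 2.09 CPM in cord and 11.0 CPM in DRG (-2.39 ± 0.23, adjusted p = 4.32e-06). Ptf1a, which acts upstream of Pax2 in dividing and newborn neurons, had 1 read over the 9 libraries and was not tested.

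Of the ventral factors, 11 of 16 tested were higher in cord than in DRG, 4 were lower and 1 was not called, with a median of 2.16. Onecut2 at -3.77 ± 0.17 and Shox2 at -2.77 ± 0.33 were lower in cord. Evx1, of the V0 class, and Sp8 had no DRG read, so that cord exceeded DRG at least 48.8-fold and 43.4-fold, taken against 3 reads over the DRG group. Sp8 was also present in paw, at 14.7, 13.6 and 13.3 CPM. It was called lower in cord than in paw, as Gata3 and En1 were, and was among 4 ventral factors of 16 with that call.

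**Figure D4:**
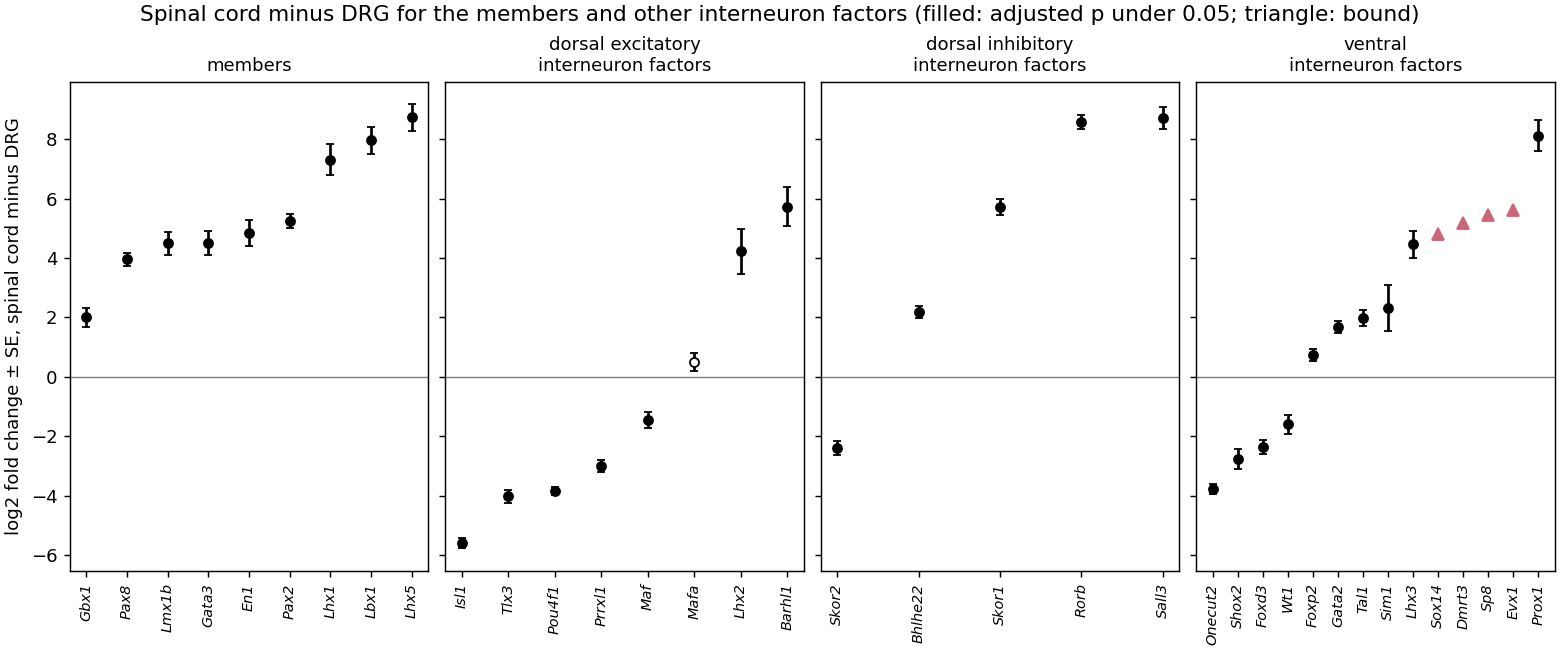
Log2 fold change ± SE of cord minus DRG (vertical axis) for the 9 factors and for tested dorsal excitatory, dorsal inhibitory and ventral interneuron factors (14 of the 16 ventral ones are drawn); filled points passed the adjusted p of 0.05, open points did not, and triangles are lower bounds for genes with no DRG read. All 9 factors lie above 0, whereas 5 dorsal excitatory, 1 dorsal inhibitory and 4 ventral factors are filled below it.

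Partners of Gata3 in the cord were measured as well. All 6 genes of cerebrospinal fluid-contacting neurons were higher in cord than in DRG, with a median of 3.65, and 4 were higher in cord than in paw. Pkd2l1, the channel that marks these neurons, stood at 49.7, 35.8 and 47.0 CPM in cord and at 0.19 ± 0.01 CPM in DRG, a difference of 7.82 ± 0.32 (adjusted p = 4.24e-09 by edgeR). Gata2, the paralog that precedes Gata3, stood at 12.5 ± 2.83 CPM in cord, 14.6 ± 1.96 CPM in paw and 3.90 ± 0.511 CPM in DRG. Gata2 was not called between cord and paw (-0.22 ± 0.18, adjusted p = 0.274), unlike Gata3. The difference between the 2 paralogs was not tested.

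Of 24 paralogs of the 9 genes, 14 were tested, and 8 were higher in cord than in DRG, 4 lower and 2 not called, with a median of 2.4. Over all tested genes, 30.6% were higher in cord than in DRG and 29% lower. En2, the paralog of En1, stood at 2.45, 3.22 and 2.58 CPM in cord and had no read in DRG or paw, at least 46.1-fold higher in cord than in paw. En1 and En2 thus lay on opposite sides in cord against paw. Gbx2, the paralog of Gbx1, stood at 2.70, 2.85 and 2.30 CPM in cord and at or below 0.123 CPM elsewhere. Lmx1a had no cord read and stood at 0.599, 0.802 and 0.942 CPM in paw, where Lmx1b had 1 read. Lbx2 was at or below 0.37 CPM in every library.

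The cofactors through which these proteins act were called in both directions between cord and DRG, as tested genes at large were. All 20 were tested, and 9 were higher in cord than in DRG, 6 lower and 5 not called. Of all tested genes, 30.6% were higher in cord and 29% lower. The median difference was 0.10 for the cofactors, beside 0.02 over all tested genes. Ldb1, the adaptor that binds the LIM domains of Lhx1, Lhx5 and Lmx1b, stood at 106 ± 9.79 CPM in cord and 99.5 ± 11.7 CPM in DRG (0.09 ± 0.12, adjusted p = 0.562 by edgeR) and at 230 ± 29.6 CPM in paw. Lmo3, a LIM-only protein that can compete for Ldb1, stood at 21.3 ± 0.867 CPM in cord and 0.872 ± 0.104 CPM in DRG, with 1 read over paw, a difference of cord from DRG of 4.60 ± 0.20 (adjusted p = 5.45e-09). Zfpm2, a partner of GATA factors, was higher in cord by 1.66 ± 0.23 (adjusted p = 7.04e-05).

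The transmitter genes of the 2 programmes differed in where they were found. Of 4 inhibitory transmitter genes, 3 were higher in cord than in DRG and Slc6a5 was not called (adjusted p = 0.0825 by edgeR). Cord sample 3 held 295 of its 354 reads. Of 3 glutamate transporter genes, none was higher in cord than in DRG, 2 were lower, and Slc17a6, the vesicular glutamate transporter of both dorsal horn and sensory neurons, was at 218 ± 2.10 CPM in cord and 215 ± 24.1 CPM in DRG (adjusted p = 0.937). All 11 tested spinal progenitor factors were higher in cord than in DRG, among them Pax6 at 11.1 ± 1.46 CPM in cord and Nkx2-2 at 11.9 ± 2.34 CPM. Of 5 motor neuron genes, 4 were higher in cord and Isl2, which sensory neurons share, was lower by -6.13 ± 0.19 (adjusted p = 5.86e-10).

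The genes whose levels over the 9 libraries came nearest to each factor were found by Euclidean distance in log2 CPM among 16090 genes, and none of the named neighbours was itself one of the 9. For Lbx1 the nearest was Irx1 at a distance of 1.11, with mean levels of 6.11 CPM in cord, 4.42 in paw and 0.0161 in DRG, followed by Prox1 at 1.67 and Mapk15 at 2.18. For Pax2 they were Shisa9 (1.44), Klhl1 (1.65) and Grm3 (1.85), and for Pax8 Crhr1 (1.07), Fam5c (1.5) and again Klhl1 (1.58). For Lhx1 they were E030019B06Rik (0.88), Neurod2 (0.999) and Neurod6 (1.1). Klhl14 (1.05), Gpr101 (1.31) and 1500016L03Rik (1.32) came nearest to Lhx5, and Nxph2 (1.06), Gabrb1 (1.14) and Gm13293 (1.25) to Lmx1b. The nearest to Gata3 was Dsg2 (0.802), a desmosomal cadherin with 29.9 CPM in paw, before BC006965 (1.31) and C030019I05Rik (1.33). Those of En1 were Irx5 (1.56), Sp8 (1.66) and 4933436C20Rik (1.67), and those of Gbx1 E030010A14Rik (1.16), 1700001O22Rik (1.22) and Hoxa2 (1.23). Distances of genes with few reads outside the cord depend on the prior count.

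RefSeq promoters (250 bases before to 50 after a start, GRCm38.p6) were at hand for 6 of the 9 genes, with 8 starts, and not for Lbx1, Lhx5 and Gbx1. They are shown for Pax8 and Pax2, paralogs with the same order of tissues. The 250 bases before the Pax8 start lie at chr2:24475600-24475849 on the minus strand, and those before one of the Pax2 starts at chr19:44755502-44755751 on the plus strand. Capitals mark a CCAAT box.
Pax8: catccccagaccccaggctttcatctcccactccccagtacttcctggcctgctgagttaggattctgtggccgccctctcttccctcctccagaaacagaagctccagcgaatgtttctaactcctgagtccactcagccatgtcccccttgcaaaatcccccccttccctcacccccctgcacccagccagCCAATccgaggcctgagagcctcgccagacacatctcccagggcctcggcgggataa
Pax2: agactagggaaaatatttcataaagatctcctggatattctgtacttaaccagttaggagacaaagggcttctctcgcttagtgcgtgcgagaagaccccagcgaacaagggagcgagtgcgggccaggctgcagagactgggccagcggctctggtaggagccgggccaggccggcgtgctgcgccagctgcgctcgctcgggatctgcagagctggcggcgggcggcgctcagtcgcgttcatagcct
On both strands of the 300 bases, CCAAT was found 2 times in En1 and Lmx1b, 1 time in Pax8 and Lhx1, and not in Gata3 or Pax2. It occurs in 37.4% of the 32851 promoters in the table. TAATTA (5.29% of promoters), AGATAA (11.2%) and TATAAA (13.6%) were found in none of the 8 windows. The number of CG pairs was 7 in Pax8, 22 in Gata3, 23 in En1, 24 in Lmx1b, 31 in Lhx1 and 7, 23 and 30 at the 3 Pax2 starts, beside a median of 7 over all promoters.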

How the data were processed

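Libraries were made from about 500 ng of RNA with oligo-dT selection and a stranded dUTP kit, and read as 50-base single ends, per the labels' protocols. Per the submitters' processing notes, bcl2fastq, TopHat2, HTSeq and the mm9 genome were used. Their versions, the annotation and the strandedness used in counting were not given in the sources used here. The authors deposited whole-number read counts per gene symbol, for 22609 genes and 5 summary rows. The summary rows held 42.9 to 59.3% of each file and stayed out of library sizes and tests.

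Samples were grouped by tissue, and 3 comparisons were made. From the counts, edgeR 4.0.16 under R 4.3.3 was fitted to all 9 libraries (6 residual degrees of freedom), after filterByExpr by tissue (16091 genes), with TMM scaling and glmQLFit (robust) with glmQLFTest. Benjamini-Hochberg adjustment ran over all tested genes, with a threshold of 0.05. Log2 CPM used a prior count of 2, and the floor was 3 reads. Ratios of counts have exact 95% intervals, from reads pooled over the libraries of a tissue. Replicates of a tissue differed beyond sampling noise in every pair (chi-square over its degrees of freedom 7.3 to 36.7), and each was kept as its own sample.

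The 9 genes and the lists of factors, paralogs, cofactors and markers were chosen with earlier results of these data known. Of each list the text gives counts and names at most the 2 called genes with the largest change in each direction and the most expressed one not called. Lbx2, Gbx2, Lmx1a, Ptf1a, Tbx4, Prx, Cpa3, Kit, Cd3e, Cd3g, Cd3d, Cd8a, Slc6a5, 4930412O13Rik and the muscle and cord marker genes were named after their values were seen. A few genes taken by the rule are not reported here. The edgeR fit alone, with its main settings, was first tested on simulated data. Alternatives were RLE size factors, no low-count filter, DESeq2 1.42.0, limma-voom (limma 3.58.1), a replicate block, a fit of only the compared tissues, each library left out in turn and, added after the data were seen, DRG samples 1 and 2 both left out. The reference transcripts (GENCODE M21) and promoters (RefSeq) are of GRCm38, not of mm9, and were used for lengths and sequences alone.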

Additional observations from a re-analysis of the deposited data

How the results depend on the processing

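Over 16 alternatives and 27 differences of the 9 factors between tissues, 415 of 429 values kept their direction and their side of the threshold. All 9 factors were called in cord against DRG and 8 in cord against paw under every alternative run. The main fit called 59.6% and 81.6% of all tested genes in these comparisons. In paw against DRG, 6 to 7 factors were called, beside 80.5% of all tested genes in the main fit, and the call of Gbx1 was lost under 3 alternatives. Lhx1, Lhx5 and Lmx1b had no value there when only the compared tissues were fitted, since they failed the filter. The values that changed sign were of genes not called. The cord minus paw difference of Lbx1 was 0.0087 with no low-count filter, 0.011 with limma-voom, 0.0095 with only the compared tissues and 0.0011 without DRG samples 1 and 2, and with 1 library left out it ran from -0.10 to 0.19. The paw minus DRG difference of Lhx1 was 0.10 with limma-voom and 1.98 without DRG samples 1 and 2, and from -2.56 to 2.00 with 1 library left out. That of Lhx5 was -0.27 without DRG samples 1 and 2. For Lhx1 and Lhx5, leaving out a library removes up to 2 of the 1 or 2 reads behind a tissue. For Lbx1 the cause was not tested. With DRG sample 1 left out, the fitted cord minus DRG difference rose to 9.70 for Lbx1 and 9.82 for Lhx1, and with DRG sample 3 left out to 10.5 for Lhx5, because the lone reads went with them. Sample numbers were also fitted as a replicate block, under which 9, 8 and 7 factors were called and the Lbx1 difference was 0.013. Whether the numbers pair the samples is not known, and correlations of deviations with 3 libraries a tissue cannot decide it. Of 9 same-numbered pairs, 2 had a correlation of deviations over 0.1, both of them DRG with cord. In those 2 pairs the DRG sample correlated best with its own number among the cord samples. Depth limits Lbx1, Lhx1, Lhx5, Gata3 and En1 in DRG and 5 of the factors in paw, where at most 5 reads stand behind a tissue.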
